A study of Caenorhabditis elegans with 12 samples.

Results

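This account covers the small RNA reads at 116 small nucleolar RNA (snoRNA) genes of Caenorhabditis elegans, out of 346 genes of that annotated class and 46726 gene identifiers in the table. A gene was taken when its annotated class in build WBcel235 was snoRNA and its raw reads, summed over the 4 groups, reached 100. The reads came from whole adult animals of a mutant and a control strain, each grown at 20 °C on bacteria for oma-1 double-stranded RNA (dsRNA) or on bacteria with the vector L4440. Mutant animals were of strain YY1192, hrde-1(gg594) with hrde-2(gg517), and control animals of YY1312, with hrde-1(gg594) alone, so that the hrde-1 allele is common to all groups. The titles of the control samples call them wild-type and do not name that allele. Each group had 3 samples: hrde-2 on oma-1 dsRNA, hrde-2 on L4440, control on oma-1 dsRNA and control on L4440. The oma-1 dsRNA matches a gene of maturing oocytes, and L4440 is the empty vector of such feeding. The deposited table gives 1 column of counts per group, so that no spread between the samples of a group could be measured. Every library of the mutant strain carried a different 5′ barcode from those of the control strain, and the strain and the barcode cannot be told apart in any comparison of genotypes. In whole animals, fewer cells of a type and less RNA per cell cannot be told apart either. The hrde-2 gene had 14 and 50 reads in hrde-2 animals on oma-1 dsRNA and L4440 and 13 and 7 in control animals, and small RNA reads there do not check the allele.

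SnoRNAs are noncoding RNAs of the nucleolus that guide the chemical modification of ribosomal and spliceosomal RNA. Box C/D snoRNAs direct methylation of the ribose by the methyltransferase fibrillarin, and box H/ACA snoRNAs direct the conversion of uridine to pseudouridine by dyskerin. The guides of the first kind are in general the shorter ones. Many snoRNAs are cut from introns of protein-coding genes, often genes of ribosomal proteins or translation factors, and others have promoters of their own. Reads of small RNA size at such a gene are pieces of the RNA or small RNAs that match it, and not the level of the full-length snoRNA. RNAs with or without a 5′ monophosphate could enter the libraries. The strand setting of the counting is unstated in the sources used. The box class was not assigned here, because no genome sequence was used. The gene smy-3 is the only one of the genes with a gene name other than a clone-based one.

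The genes were chosen by their summed raw reads, so that their levels are described and not tested. The summed reads ran from 102 to 63746 with a median of 1049.5, and 20 genes had 5000 or more. Just inside the limit stood C51F7.4 with 116, K07C5.10 with 107, Y73B6A.14 with 106 and W03C9.9 with 102 reads, and just outside it C05D2.15 with 99, F54F11.6 with 95, K04D7.17 with 90 and Y53F4B.47 with 70. Because hrde-2 on L4440 was the deepest column, the sum weighs that group most, and a gene near the limit can have reached it through the group where it is high. Counts and medians over the genes are therefore descriptions. Reads assigned to any gene numbered 16057238 and 39077097 in hrde-2 animals on oma-1 dsRNA and L4440, and 34238988 and 25323188 in control animals. Between 40.4 and 42.4% of the reads listed were ambiguous, the class in which the counting tool HTSeq puts reads that overlap more than 1 feature. Levels are given below as CPM, read counts set to a common library size after scaling by the trimmed mean of M values (TMM), and intervals in brackets are 95% intervals of counting error only, with reads taken as independent molecules, which amplified reads are not.

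The location of a snoRNA gene went with whether it had reads. Of the 95 snoRNA genes that overlap an annotated exon of another gene, 54 had 0 reads in all 4 groups and 14 reached 100. Of the 121 genes inside an intron on the strand of the host gene, 14 had 0 reads and 57 (47.1%) reached 100. The 108 genes that lie in no other gene gave 34 (31.5%), and the 22 genes inside an intron on the other strand gave 11. In all 78 snoRNA genes had 0 reads, and those are genes whose reads, if any, were not assigned to them alone. The genes covered here lay on all 6 chromosomes, 8 on X and 19 to 24 on each autosome. Among the 61 of them with 1000 or more reads, 0 had another gene with near-equal reads, within 5% or 15 reads, in all 4 groups.

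A few genes held most of the reads: the 12 with most reads held 64.6% of the reads of all 116. C51F7.3 (WBGene00014290, chromosome V, 12303708 to 12303783, plus strand), 76 nt long and inside an intron of frm-7, had 11727 and 39804 reads in hrde-2 animals on oma-1 dsRNA and L4440, against 7929 and 4286 in control animals on the same foods. On the CPM scale that is 537 and 597 CPM in hrde-2 animals, against 348 and 262 CPM in control animals, so that both mutant values lay above both control values. Y38F2AR.14 (WBGene00023467, chromosome IV, 2408508 to 2408635, minus strand), 128 nt long and inside an intron of Y38F2AR.12, had 10770 and 33302 reads in hrde-2 animals on oma-1 dsRNA and L4440, against 1695 and 845 in control animals on the same foods. Its level was 493 and 499 CPM in hrde-2 animals, against 74.3 and 51.6 CPM in control animals. These 2 genes took 12.2 and 11.2% of all snoRNA reads in hrde-2 animals on oma-1 dsRNA and 17.0 and 14.2% in hrde-2 animals on L4440. In control animals the same genes took 7.77 and 1.66% on oma-1 dsRNA and 6.46 and 1.27% on L4440. These shares do not depend on any scaling of the libraries.

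The next genes in order of reads had other patterns. The gene smy-3 (WBGene00045159, chromosome V, 14092572 to 14092651, plus strand), which lies in no other gene, had 317 and 265 CPM in hrde-2 animals, against 399.7 and 229 CPM in control animals, and the genotypes overlapped. Y75B12B.12 (WBGene00045129, chromosome V, 15190976 to 15191093, minus strand), also in no other gene, had 191 and 128 CPM in hrde-2 animals, against 395 and 404 CPM in control animals, and both mutant values lay below both control values. K02C4.8 (WBGene00045157, chromosome II, 8075509 to 8075643, plus strand) had the same order, with 195 and 98.7 CPM in hrde-2 animals, against 346 and 388 CPM in control animals. ZK265.10, the shortest of the 12 at 62 nt, had 292 and 170.0 CPM in hrde-2 animals, against 223 and 184 CPM in control animals, with overlap. F25H2.15 had 180.0 and 132 CPM in hrde-2 animals, against 311 and 268 CPM in control animals, without overlap. F25H5.9, in an intron of the pyruvate kinase gene pyk-1, had 166 and 97.5 CPM in hrde-2 animals, against 149 and 152 CPM in control animals, and here the mutant values lay on either side of the control values. ZK994.7, in an intron of the peroxidasin gene pxn-1, likewise had 131 and 66.5 CPM in hrde-2 animals, against 107 and 115 CPM in control animals. K02C4.7 was close in all groups, with 119 and 112 CPM in hrde-2 animals, against 141 and 125 CPM in control animals. F59C6.15 had both mutant values below both control values, with 129.7 and 90.1 CPM in hrde-2 animals, against 159.7 and 148 CPM in control animals. T26A8.6 stood higher in hrde-2 animals, with 103 and 109 CPM in hrde-2 animals, against 64.5 and 67.2 CPM in control animals. Per kilobase of annotated gene, the mean CPM over the 4 groups was 5734 at C51F7.3, 3784 at smy-3, 3503 at ZK265.10, 2368 at Y75B12B.12 and 2184 at Y38F2AR.14, and the order of such means differs between single groups.

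**Figure D1:**
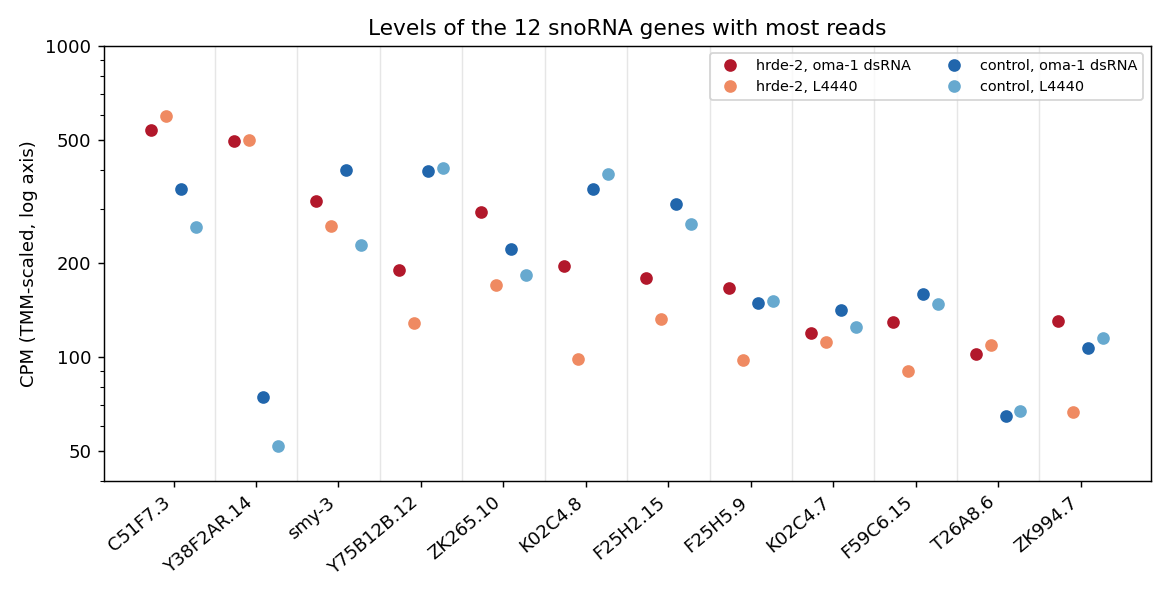
Level of the 12 snoRNA genes with most reads, as TMM-scaled CPM on a log axis, with 1 point per group (hrde-2 on oma-1 dsRNA, hrde-2 on L4440, control on oma-1 dsRNA and control on L4440, each a pooled column). Y38F2AR.14 has hrde-2 points at 493 and 499 CPM above control points at 74.3 and 51.6 CPM, while Y75B12B.12 and K02C4.8 have both hrde-2 points below both control points.

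The first comparison asks which snoRNA genes differed between hrde-2 and control animals. The genotype difference averaged over both foods was tested in 1 additive fit of genotype and food to the 4 columns, which leaves 1 residual degree of freedom, with the quasi-likelihood test of edgeR and Benjamini-Hochberg adjustment over all 16329 features tested. All 116 snoRNA genes passed the filter on low counts. Of these, 16 rose and 36 fell in hrde-2 animals at an adjusted p under 0.05, against 8.95 and 9.7% of all features tested, most of which had far fewer reads. Among features with 5 CPM or more in at least 1 group, 11 of 78 snoRNA genes rose and 23 fell, which is 14.1 and 29.5%. The background of all 2279 such features was 14.9% higher and 31.1% lower, so that the snoRNA genes as a class moved about as often as other features. The test rests on 2 pooled columns per genotype, and nothing in the labels says that the samples were separate cultures, so that its p-values measure only the spread between these columns. The fit shared that spread across all features, with 451.8 or more prior degrees of freedom beside the 1 residual degree of freedom of each gene. A small p-value therefore does not measure the spread of that gene between animals or cultures. DESeq2 called 14 of the 16 higher and 24 of the 36 lower genes.

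The size of the genotype difference was spread widely around a median near that of all features. Its log2 value, averaged over both foods, had a median of −0.36 over the 78 snoRNA genes at 5 CPM or more, against −0.42 over all features, with the quartiles of the snoRNA genes at −0.99 and 0.42. On L4440 the median was −0.55, with 11 of 76 genes at least 2-fold higher and 23 at least 2-fold lower, against 13.1 and 29.5% of all features compared. On oma-1 dsRNA the median was −0.26, with 14 of 76 genes higher and 17 lower, against 13.8 and 27.8%. The sign of these medians depends on the scaling. As a share of gene-assigned reads, the 116 genes held 0.595 and 0.598% in hrde-2 animals on oma-1 dsRNA and L4440, against 0.297 and 0.261% in control animals. Under TMM their summed level was 4379 and 3503 CPM in hrde-2 animals, against 4460.2 and 4034 CPM in control animals. With library size alone the median genotype difference was 1.02 for the snoRNA genes and 1.02 for all features, and with the authors' constants 0.48 and 0.41, so that the sign turned for both alike. Every genotype difference given here under TMM is about 1.22 higher with library size alone and 0.68 higher with the authors' constants. With library size alone 64 snoRNA genes rose and 9 fell, which is 55.2 and 7.76% of them, against 62.8 and 1.32% of all features under that scaling.

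Of the genes that rose in hrde-2 animals, the 8 with the largest difference were ZC395.12, Y38F2AR.14, C07H6.10, C51F7.4, K12D12.8, C08D8.3, C27H5.9 and Y55F3BR.9. Y38F2AR.14 had a log2 difference of 3.0 (counting SE 0.0314, edgeR adjusted p = 3.08e-09), with ratios of 6.64 (6.30 to 6.99) on oma-1 dsRNA and 9.67 (9.03 to 10.4) on L4440. C07H6.10 (WBGene00044945, chromosome III, 7496577 to 7496654, minus strand), in an intron of cgh-1, a DEAD-box RNA helicase gene of the germline, had 545 and 1853 reads in hrde-2 animals on oma-1 dsRNA and L4440, against 50 and 84 in control animals on the same foods. Its log2 difference was 2.97 (counting SE 0.133, edgeR adjusted p = 2.26e-14), and its lowest mutant level of 25 CPM lay well above its highest control level of 5.13 CPM. ZC395.12, which overlaps an exon of gro-1, had 102 and 280 reads in hrde-2 animals and 15 and 7 in control animals, a log2 difference of 3.02 (counting SE 0.331, edgeR adjusted p = 1.12e-18). Its few control reads make that size uncertain. Without its reads in hrde-2 animals, ZC395.12 would not have reached the read limit. The choice of genes thus favoured a rise at ZC395.12, and its p-value and place are descriptions.

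The other 5 had smaller differences or fewer reads. Y55F3BR.9 (WBGene00023183, chromosome IV, 867056 to 867133, minus strand), on the strand opposite to its host Y55F3BR.2 and overlapping the noncoding RNA gene Y55F3BR.17, had 116 and 98.8 CPM in hrde-2 animals, against 45.5 and 27.1 CPM in control animals, a log2 difference of 1.61 with an edgeR adjusted p of 7.07e-04. C08D8.3 had 315 and 725 reads in hrde-2 animals and 93 and 61 in control animals (log2 difference 1.68). K12D12.8, in an intron of the topoisomerase gene top-2, had 151 and 486 reads in hrde-2 animals and 67 and 27 in control animals (log2 difference 1.68). All mutant CPM values lay above all control values in these 3 genes. C27H5.9 had 91 and 206 reads in hrde-2 animals and 29 and 16 in control animals (log2 difference 1.67). C51F7.4 overlaps an exon of frm-7 and ends beside C51F7.3 (12303693 against a start at 12303708). It had 13 and 95 reads in hrde-2 animals and 3 and 5 in control animals (log2 difference 2.11, counting SE 0.536). With 116 reads in all, C51F7.4 reached the read limit only through its 95 reads in hrde-2 animals on L4440. The choice of genes thus favoured a rise at C51F7.4, and its place among the genes that rose is a description. The same holds for K12D12.8 and C27H5.9, which would not have reached the read limit without their reads in hrde-2 animals. The neighbour C51F7.3 had a log2 difference of 0.91 and did not pass the test, with an edgeR adjusted p of 0.151. It did pass with library size alone (log2 difference 2.12, edgeR adjusted p = 1.94e-06), with the authors' constants (1.59, edgeR adjusted p = 0.00138) and with the strict filter (1.79, edgeR adjusted p = 1.06e-05), which keeps genes at 10 CPM or more in 3 or more columns.

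Of the genes that fell in hrde-2 animals, F28C6.11 had the largest difference. F28C6.11 (WBGene00045130, chromosome II, 8602971 to 8603103, plus strand), 133 nt long and in an intron of the ribosomal protein gene rpl-26, had 297 and 456 reads in hrde-2 animals on oma-1 dsRNA and L4440, against 2896 and 1997 in control animals on the same foods. Its level was 13.6 and 6.83 CPM in hrde-2 animals, against 127 and 122 CPM in control animals, a log2 difference of −3.69 (counting SE 0.0577, edgeR adjusted p = 1.65e-15). The ratio of hrde-2 to control was 0.107 (0.0947 to 0.121) on oma-1 dsRNA and 0.0560 (0.0505 to 0.0621) on L4440. F54E7.10 (WBGene00044941, chromosome III, 5679378 to 5679509, plus strand), in an intron of the ribosomal protein gene rps-12, had 18.2 and 10.4 CPM in hrde-2 animals, against 101 and 71.0 CPM in control animals, a log2 difference of −2.62 (counting SE 0.0522, edgeR adjusted p = 2.56e-09). K09E9.5 (WBGene00045171, chromosome X, 15619491 to 15619621, plus strand), in no other gene, had 5.95 and 4.57 CPM in hrde-2 animals, against 27.2 and 41.6 CPM in control animals, a log2 difference of −2.69. In these 3 genes the mutant and control values did not overlap.

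ZK643.9 (WBGene00045132, chromosome III, 8937767 to 8937897, plus strand) had 25.2 and 15.6 CPM in hrde-2 animals, against 65.8 and 109 CPM in control animals, a log2 difference of −2.10 with an edgeR adjusted p of 4.47e-06. The remaining 4 of the 8 lowest had few reads. Without their reads in control animals, these 4 genes would not have reached the read limit. The choice of genes thus favoured a fall at them, and their places among the lowest are descriptions. H04D03.5 had 8 and 30 reads in hrde-2 animals and 136 and 62 in control animals (log2 difference −3.50), and T09B9.10 on the X chromosome had 6 and 19 reads in hrde-2 animals and 62 and 42 in control animals (log2 difference −3.17). Y73B6A.14 had 9 and 17 reads in hrde-2 animals and 51 and 29 in control animals (log2 difference −2.56), and Y48A6C.10 had 15 and 33 reads in hrde-2 animals and 76 and 35 in control animals (log2 difference −2.16). Among the genes with most reads, Y75B12B.12 fell with a log2 difference of −1.35 (edgeR adjusted p = 0.0136) and K02C4.8 with −1.40 (edgeR adjusted p = 0.0106). Neither passed with library size alone (edgeR adjusted p = 0.743 and 0.662) or with the authors' constants (0.179 and 0.150). Among the genes named below for their food difference, C05H8.3 rose (log2 difference 1.59, edgeR adjusted p = 2.71e-06), and D1046.6, F11A10.9 and F22D6.16 fell (−1.86, −1.66 and −1.29, with edgeR adjusted p of 2.36e-06, 1.12e-05 and 4.51e-05). None of these 3 passed with library size alone (edgeR adjusted p = 0.127, 0.280 and 0.817). The genes just inside the read limit, K07C5.10 and W03C9.9, also fell under TMM, with log2 differences of −1.08 and −2.03 on 107 and 102 reads in all, and W03C9.9 did not pass with library size alone (edgeR adjusted p = 0.0727), while the value of K07C5.10 turned to 0.12 with library size alone.

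The genotype differences on the foods, which use separate columns, were set side by side. Across the 78 snoRNA genes at 5 CPM or more, the log2 differences on oma-1 dsRNA and on L4440 had Pearson r = 0.875 (Spearman rho = 0.841), which is a description across genes of the same 4 libraries. They had the same sign in 66 of the 78 genes.

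**Figure D2:**
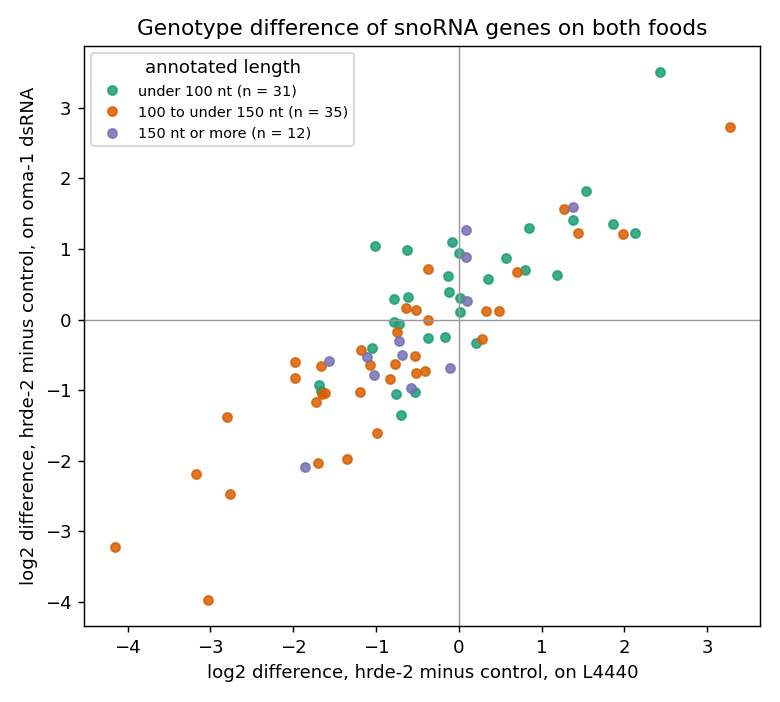
Log2 difference of hrde-2 minus control on L4440 (x axis) and on oma-1 dsRNA (y axis) for 78 snoRNA genes, 1 point per gene, coloured by annotated length. The points run along the diagonal (Pearson r = 0.875), and most of the points at the lower left are genes of 100 to under 150 nt.

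The genotype difference went with the annotated length of the gene, a split that was made after the values were seen and is not tested. Counts and medians here are for genes at 5 CPM or more in at least 1 group, which leaves 31 of 37 genes under 100 nt, 35 of 55 of 100 to under 150 nt and 12 of 24 longer ones. Of the 31 genes under 100 nt, 18 were above 0 and 13 below, with a median log2 difference of 0.14. Of the 35 genes of 100 to under 150 nt, 8 were above 0 and 27 below, with a median of −0.80. The 12 longer genes had a median of −0.55. By the test, 6 of the genes under 100 nt rose (19.4%) and 3 fell (9.68%). Of the genes of 100 to under 150 nt, 4 rose (11.4%) and 17 fell (48.6%), beside the 14.9 and 31.1% of all features at this level. Without that limit, 8 of 37 (21.6%) genes under 100 nt rose and 5 of 37 (13.5%) fell, and 5 of 55 (9.09%) genes of 100 to under 150 nt rose and 25 of 55 (45.5%) fell, beside the 8.95 and 9.7% of all features tested. At 5 CPM or more, the order was the same where the genes lay in no other gene, with medians of 0.14 over 11 genes and −1.38 over only 6. It was also the same where they lay in an intron on the host's strand, with 0.016 over 13 genes and −0.77 over 20. The gap between the medians of the 2 shorter classes was 0.94, and it ran from 0.72 to 1.10 over the other scalings, filters and subsets tried. A scaling adds nearly the same constant to every gene, so that the gap could move under it mainly through which genes reach 5 CPM. That the gap held over the scalings is therefore no check of the split. As a share of reads, which no scaling moves, the genes under 100 nt held 50.3 and 51.4% in hrde-2 animals on oma-1 dsRNA and L4440, against 43.1 and 38.7% in control animals. Much of that shift lay at C51F7.3, the gene of this class with most reads. It alone held 12.2 and 17.0% of all snoRNA reads in hrde-2 animals on these foods, against 7.77 and 6.46% in control animals.

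Genes of 100 to under 150 nt ran in both directions at 5 CPM or more. Y38F2AR.14, at 3.0, and F28C6.11, at −3.69, are 128 and 133 nt long and mark the extremes of that class at this level. In the class under 100 nt the range at this level was −1.33 to 2.97.

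**Figure D3:**
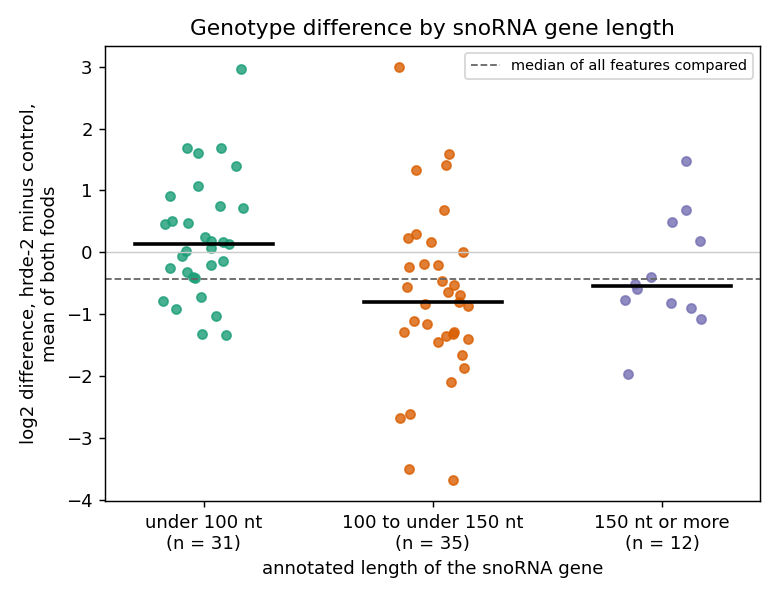
Log2 difference of hrde-2 minus control, averaged over both foods, for snoRNA genes at 5 CPM or more in at least 1 group, in 3 classes of annotated length, 1 point per gene, with a black bar at the class median. The median is 0.14 under 100 nt and −0.80 at 100 to under 150 nt, on either side of the dashed line at −0.42 for all features compared.

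Introns on the host's strand held 57 of the snoRNA genes, in 48 host genes. Ribosomal protein genes made up 10 of these hosts and held 14 of the genes, among them rpl-26, rpl-6, rps-12, rps-29 and rpl-15. Other hosts included eef-1G, an elongation factor gene, mrps-2, a mitochondrial ribosomal protein gene, prp-8, a splicing factor gene, nol-56, whose own product is a core protein of box C/D particles, and genes of other roles such as pyk-1 and pxn-1. Host introns had a median length of 268 nt, from 148 to 7483 nt. The distance from the end of the snoRNA gene to the 3′ end of the intron had a median of 63 nt, with quartiles of 36 and 75 nt. The distance from the 5′ end of the intron differed by length. It had a median of 143 nt for the 15 genes under 100 nt, of which 1 lay within 50 nt of it, and 36 nt for the 42 longer ones, of which 26 did. By location, the median genotype difference was −0.36 in introns on the host's strand, −0.21 in introns on the other strand, −0.39 in no other gene and −0.33 where an exon is overlapped. Within introns on the host's strand it was −0.70 over the 9 genes in ribosomal protein genes and −0.32 over the 27 in other hosts. The genes in ribosomal protein genes were all 125 nt or longer, and those under 100 nt were all in other hosts. Over all 20 genes of 100 to under 150 nt in such introns the median was −0.77. Kind of host and length were thus not separated here.

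Genotype differences of the host genes and of the snoRNA genes inside them were set side by side. In 30 of the 57 cases the host gene had fewer reads than the snoRNA gene. Over the 33 genes whose host reached 5 CPM, the genotype differences of the snoRNA gene and the host had Pearson r = 0.0209 (Spearman rho = −0.121), across genes of the same libraries. The level of 5 CPM was asked of the host only, and some of these snoRNA genes lay below it. The 33 genes lie in 27 hosts, so that a host with a pair of them counts for both. Of the 47 hosts tested, 3 rose (6.38%) and 1 fell (2.13%), against the 8.95 and 9.7% of all features tested, most of which had few reads. Among all features at 5 CPM or more, a level that 27 of the hosts reached, 14.9% rose and 31.1% fell. The 3 hosts that rose and the 1 that fell were all among these 27. Y38F2AR.12, the host of Y38F2AR.14, rose with it, with 130 and 446 reads in hrde-2 animals on oma-1 dsRNA and L4440, against 21 and 23 in control animals and a log2 difference of 2.46 (edgeR adjusted p = 2.21e-14). The gene cgh-1 fell while C07H6.10 in its intron rose. It had 1981 and 6280 reads in hrde-2 animals on oma-1 dsRNA and L4440, against 7422 and 3778 in control animals, a log2 difference of −1.57 (edgeR adjusted p = 0.00206). Of the other hosts, T24H7.2 (1.21) and rps-13 (1.04) rose, and they hold T24H7.6 and C16A3.11, whose own log2 differences were −1.33 and −0.86. At F28C6.11 the host rpl-26 had 115 and 191 reads in hrde-2 animals on oma-1 dsRNA and L4440, against 70 and 64 in control animals, a log2 difference of 0.16 (edgeR adjusted p = 0.741).

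**Figure D4:**
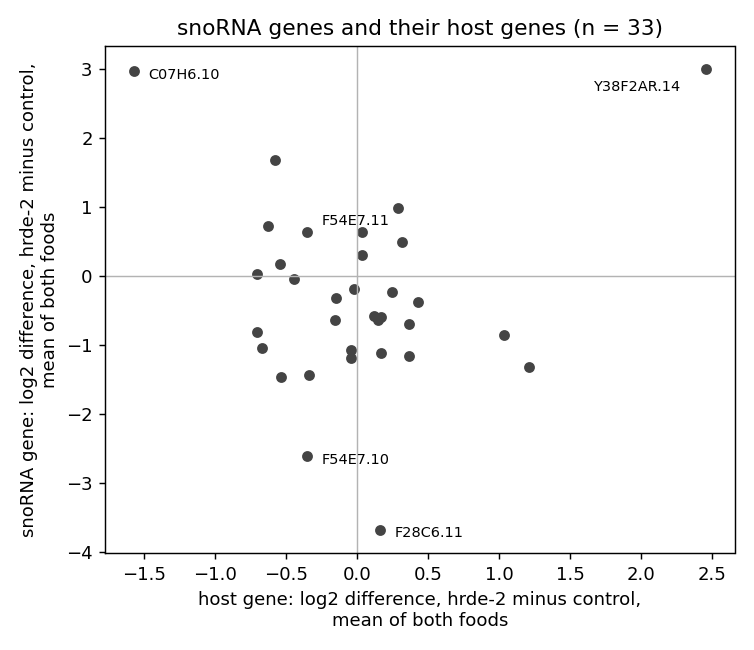
Log2 difference of hrde-2 minus control, averaged over both foods, of the host gene (x axis) and of the snoRNA gene in its intron (y axis), for 33 snoRNA genes on the host's strand whose host reached 5 CPM. Some of the snoRNA genes themselves lay below that level. C07H6.10 and its host lie on opposite sides of 0, Y38F2AR.14 and its host are both above 0, and the points follow no line (Pearson r = 0.0209).

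A pair of the snoRNA genes shared a host in 9 host genes, and no host held more. The pair in rps-12 differed most. F54E7.10 fell (−2.62), whereas F54E7.11, 131 nt long in another intron of the same gene, had 58 and 103 reads in hrde-2 animals and 33 and 19 in control animals and a log2 difference of 0.64 (edgeR adjusted p = 0.0911). The pairs in rpl-6 (−0.70 and −1.16 at R151.13 and R151.12), akir-1 (−0.84 and −0.46 at E01A2.9 and E01A2.11), nol-56 (−1.19 and −1.08 at K07C5.11 and K07C5.10) and eef-1G (−1.11 and −0.59 at F17C11.14 and F17C11.15) were below 0 at both genes under TMM. The pair in rpl-15 was above 0 at both (0.64 and 0.30 at K11H12.12 and K11H12.13). In air-1, an Aurora kinase gene, the values were −0.20 and −1.19 at K07C11.12 and K07C11.11. In cdc-48.1 they were −0.82 and 0.030 at C06A1.9 and C06A1.8, and in rps-29 −0.0024 and 0.23 at B0412.6 and B0412.7.

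The second comparison asks which snoRNA genes differed between animals on oma-1 dsRNA and on L4440. In hrde-2 animals 5 of 70 genes at 5 CPM or more had a ratio of oma-1 dsRNA to L4440 of 2 or more and 0 a ratio of 0.5 or less, against 3.78 and 1.08% of all features compared. In control animals 0 of 74 passed the upper limit and 1 the lower, against 0.647 and 0.299%. The median log2 difference was 0.42 in hrde-2 animals, where 61 of 78 genes were above 0, and 0.049 in control animals, where 43 were. Over all features the medians were 0.077 and 0.0076, with 58.8 and 50.6% above 0. With library size alone the medians in hrde-2 animals were 0.080 for the snoRNA genes and −0.28 for all features, and with factors from miRNA genes 0.037 and −0.31. The gap between the snoRNA genes and all features changed little, since a scaling adds nearly the same constant to both. The food differences of the 2 genotypes, which share no column, had Pearson r = 0.00326 (Spearman rho = −0.045) across the 78 genes. Beyond counting error in both genotypes, 10 of 66 genes (15.2%) were higher on oma-1 dsRNA in hrde-2 animals and lower in control animals, and 1 (1.52%) was the other way round, against 21.3 and 8.78% of all features compared. At 5 (7.58%) the ratios also differed at least 2-fold, against 10.8%. These counts were made under TMM and depend on the scaling. The genes in the first and the second direction numbered 5 and 9 of 64 with library size alone, 7 and 6 of 65 with the authors' constants and 6 and 9 of 64 with TMM on miRNA genes.

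Where the higher of the 2 groups had at least 5 CPM, the gene with the largest food difference in hrde-2 animals was C27H6.5 (WBGene00044974, chromosome V, 9970204 to 9970271, minus strand), in an intron of unc-41, a gene of synaptic vesicle recycling. It had 37.0 CPM on oma-1 dsRNA against 9.59 CPM on L4440 in hrde-2 animals, and 17.9 against 19.4 CPM in control animals. The ratio was 3.86 (3.47 to 4.29) in hrde-2 animals and 0.922 (0.794 to 1.07) in control animals. Of the genes at 5 CPM or more, it was the 1 with a ratio above 2 in hrde-2 animals under library size alone as well. B0250.19, in an intron of the ribosomal protein gene rpl-2, T02E1.9 and F46F11.12 followed in hrde-2 animals at that level, with ratios of 2.49 (2.08 to 2.99), 2.49 (2.14 to 2.89) and 2.13 (1.94 to 2.35). In control animals the ratios at these genes were 1.59 (1.24 to 2.04), 0.813 (0.650 to 1.02) and 0.941 (0.792 to 1.12). At that level the lowest ratios in hrde-2 animals were 0.662 (0.584 to 0.748) at R166.7, 0.715 (0.603 to 0.844) at B0334.12, 0.726 (0.619 to 0.848) at C05H8.3 and 0.736 (0.620 to 0.871) at C17D12.8.

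In control animals, at the same minimum level, the highest ratios of oma-1 dsRNA to L4440 were 1.99 (1.54 to 2.58) at F22D6.16, 1.96 (1.70 to 2.27) at F11A10.9, 1.92 (1.70 to 2.18) at D1046.6 and 1.85 (1.40 to 2.47) at ZK546.18. The lowest were 0.428 (0.295 to 0.614) at C07H6.10, 0.604 (0.564 to 0.648) at ZK643.9, 0.655 (0.587 to 0.731) at K09E9.5 and 0.687 (0.538 to 0.878) at Y23H5B.10. At that level C07H6.10 was the 1 gene more than 2-fold lower, on 50 and 84 reads.

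Averaged over both genotypes in the additive fit, 1 snoRNA gene rose on oma-1 dsRNA and 0 fell by edgeR, against 0.098 and 0.0796% of all features tested. DESeq2 called 0 in either direction, and 17 of the 116 genes (14.7%) had an unadjusted edgeR p under 0.05, against 4.73% of all features, most of which had fewer reads. The 1 gene was K11H12.13, in an intron of the ribosomal protein gene rpl-15, which is named because it passed the test. K11H12.13 had 40 reads on oma-1 dsRNA against 43 on L4440 in hrde-2 animals, and 36 against 8 in control animals, below 5 CPM in every group. Of the 78 snoRNA genes at 5 CPM or more, 0 passed in either direction, against 1 higher and 4 lower of 2279 features. Its log2 difference was 1.57 (edgeR adjusted p = 0.00191), with ratios of 2.84 (1.80 to 4.48) and 3.23 (1.48 to 8.05). The oma-1 gene itself had 5250 against 148 reads in hrde-2 animals and 10881 against 37 in control animals, as the food labels require.

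**Figure D5:**
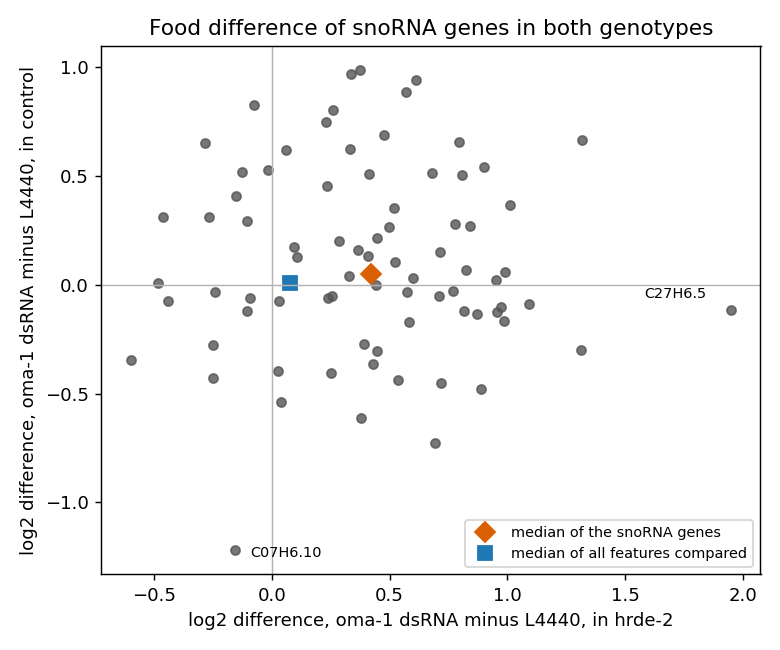
Log2 difference of oma-1 dsRNA minus L4440 in hrde-2 animals (x axis) and in control animals (y axis) for 78 snoRNA genes, 1 grey point per gene, with the median of the snoRNA genes and of all features compared as larger marks. The median of the snoRNA genes lies at 0.42 in hrde-2 and 0.049 in control, and C27H6.5 stands apart on the right.

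Small RNAs at the genes for the proteins of snoRNA particles did not pass the test in either comparison. The list held 8 genes, of which 7 were tested, and 0 rose or fell between genotypes or foods by edgeR or by DESeq2. At an unadjusted edgeR p under 0.05 there was 1 between genotypes and 0 between foods. The fibrillarin gene fib-1 had 141 and 365 reads in hrde-2 animals and 86 and 108 in control animals on oma-1 dsRNA and L4440 (log2 genotype difference 0.25, edgeR adjusted p = 0.634). The core protein genes nol-56 and nol-58 stood at −0.040 and −0.55, and dkc-1, the dyskerin gene, at −0.033. The gene nola-3 had 0 reads in every group.

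Among the other classes of noncoding RNA, the median genotype difference at 5 CPM or more was −1.10 over 67 small nuclear RNA genes, −1.08 over 247 tRNA genes, −2.0 over 21 rRNA genes and −0.15 over 25 miRNA genes, against −0.36 for the snoRNA genes. It was −0.52 over 212 genes of other noncoding RNA, −0.21 over 13 long intergenic RNA genes and 2.46 over 3 piRNA genes. The food difference in hrde-2 animals had a median of 0.46 for tRNA genes, 0.49 for miRNA genes and −0.35 for rRNA genes, beside 0.42 for snoRNA genes. Of the 11 miRNA genes chosen as markers of stage and tissue, 1 (let-7) was not matched by name, and lin-4, mir-1 and mir-124 had 0 reads in every group, so that they could not check the tissue. The embryonic mir-35 family members mir-35 to mir-41 summed to 22.8 and 16.0 CPM in hrde-2 animals on oma-1 dsRNA and L4440, against 97.6 and 86.9 CPM in control animals. Most of that sum was mir-41, with 20.2 and 13.5 CPM in hrde-2 animals, against 90.5 and 80.6 CPM in control animals. By edgeR mir-35, mir-37 and mir-41 fell and mir-40 was not tested. The low members mir-36, mir-38 and mir-39 did not pass, with log2 differences of 0.68, −0.80 and 0.58. This family is made in oocytes and embryos, and its part in the genotype differences of the snoRNA genes was not tested.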

How the data were processed

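Small RNAs of 12 samples (4 groups of 3) were cloned, with no need for a 5′ monophosphate, from 2 µg of RNA, with 5′ and 3′ barcodes, per the labels' protocols. The authors deposited 1 column of raw counts per group, made with HTSeq 0.6.1 per the submitters' processing notes, and a second set of normalized values, a signal that equals the deposited counts divided by 0.87 (hrde-2 on oma-1 dsRNA), 2.33 (hrde-2 on L4440), 1.34 (control on oma-1 dsRNA) and 1 (control on L4440). The sources used here do not say how the 3 samples were merged, nor name the aligner or annotation.

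Of 46726 identifiers, 46364 matched the WBcel235 annotation, which gave gene class, position and introns. The snoRNA genes, gene lists and named-gene rule were chosen with earlier results of these data known. Counts were scaled by TMM, filtered by filterByExpr and fitted with edgeR 4.0.16 (robust quasi-likelihood) in R 4.3.3, additive in genotype and food. The alternatives were DESeq2 1.42.0, other scalings and other filters. Log2 differences use a prior count of 0.5, and 2-fold counts and medians use genes at 5 CPM or more. Ratios of 2 columns carry exact conditional binomial 95% intervals. Named genes are the 12 with most reads, the 8 highest and 8 lowest by genotype, the 4 highest and 4 lowest by food in each genotype, and 4 on each side of the read limit. Others were chosen after their values were seen.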

Additional observations from a re-analysis of the deposited data

Results flagged for a closer look

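Under TMM scaling, at 5 snoRNA genes the food difference had opposite signs in the genotypes, with both counting intervals away from a ratio of 1 and at least 2-fold between the ratios. ZK643.9 had a log2 difference of oma-1 dsRNA minus L4440 of 0.69 in hrde-2 animals and −0.73 in control animals, a difference of 1.42 between genotypes. Y43F8C.22 had 0.89 in hrde-2 animals and −0.48 in control animals, a difference of 1.37. ZK484.9 had 0.72 in hrde-2 animals and −0.45 in control animals, a difference of 1.17. K02C4.8 had 0.99 in hrde-2 animals and −0.17 in control animals, a difference of 1.15, and ZK994.7 had 0.97 in hrde-2 animals and −0.10 in control animals, a difference of 1.07. With 1 pooled column per group, the difference between genotypes was not tested. Of the 66 snoRNA genes compared, 10 were higher on oma-1 dsRNA in hrde-2 animals and lower in control animals beyond counting error (15.2%), and 1 was the other way round (1.52%), against 21.3 and 8.78% of all features compared. The 5 genes above are 7.58% of those 66, against 10.8% of all features. The median over all snoRNA genes was already 0.42 in hrde-2 animals and 0.049 in control animals. Scalings compared after seeing the data gave other counts: 5 with DESeq2 size factors, 4 with TMM without structural RNAs, and 2 each with library size alone, the authors' constants and TMM on miRNA genes, against 13.8, 10.6 and 12.8% of all features with these last 3. Of those 2, ZK643.9 was 1 each time; the other was Y43F8C.22 with the authors' constants and T23B12.13, not among the 5 genes above, with library size alone and TMM on miRNA genes.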

How the results depend on the processing

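Medians counted as moved at 0.1 log2 or more. The median genotype difference of the snoRNA genes, −0.36 under TMM, was 1.02 with library size alone, 0.48 with the authors' constants, −0.18 with TMM on miRNA genes, 0.43 with a strict filter (10 CPM or more in 3 or more columns), and −0.19 for genes at 1000 or more reads. Against the median of all features it was 0.069 higher under TMM, −0.0036 with library size alone, 0.067 with the authors' constants and 0.063 with TMM on miRNA genes, but 0.44 with the strict filter, which keeps 42 of the 116 genes and 878 features. The median food difference in hrde-2 animals, 0.42, was 0.080, 0.22, 0.037 and 0.26 with library size, the authors' constants, TMM on miRNA genes and the strict filter. In control animals it was −0.18 with the strict filter, against 0.049. The genes that rose in hrde-2 animals numbered 64, 41 and 10 with library size, the authors' constants and the strict filter, against 16, and those that fell 9, 16 and 4, against 36. With TMM on miRNA genes 16 rose and 24 fell. For food, the 1 call became 0 with library size, TMM on miRNA genes, the strict filter and DESeq2. Genes at least 2-fold higher in hrde-2 animals on L4440 numbered 40 with library size and 23 with the authors' constants, against 11, and those lower 4, 7 and, with the strict filter, 5, against 23. On oma-1 dsRNA those higher numbered 40 and 27, against 14, and those lower 4, 7 and 4, against 17. The 5 genes higher on oma-1 dsRNA in hrde-2 animals became 1, 3, 1 and 1 with library size, the authors' constants, TMM on miRNA genes and the strict filter. In control animals the 0 higher became 2, 2 and 1 with the first 3 of these, 1 with DESeq2 size factors and 1 with TMM without structural RNAs, and the 1 lower became 0 with all 4.

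Among single genes, library size alone turned the genotype difference to 1.15 at smy-3, 0.31 at F25H2.15, 0.98 at F25H5.9, 1.01 at K02C4.7, 0.71 at F59C6.15, 0.96 at ZK994.7, 1.02 at B0250.19, 0.58 at R166.7, 0.43 at B0334.12, 0.65 at ZK546.18, 0.75 at Y23H5B.10 and 0.12 at K07C5.10. The authors' constants turned it to 0.62 at smy-3, 0.44 at F25H5.9, 0.48 at K02C4.7, 0.17 at F59C6.15, 0.43 at ZK994.7, 0.48 at B0250.19, 0.045 at R166.7, 0.12 at ZK546.18 and 0.22 at Y23H5B.10. The strict filter turned it to 0.82 at smy-3, 0.65 at F25H5.9, 0.68 at K02C4.7, 0.38 at F59C6.15, 0.63 at ZK994.7, 0.25 at R166.7 and 0.11 at B0334.12, and TMM on miRNA genes to 0.077 at smy-3. For the scalings the turn follows from the construction, a constant added to every log2 difference. Of the other values for named genes, 215 kept their direction and their side of an edgeR adjusted p of 0.05, 14 went above it and 15 went below it, with the direction kept.

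No paired analysis was possible because the deposited columns pool the 3 samples of a group and carry no replicate number. Leaving out a replicate was not possible for the same reason, and leaving out a column leaves no residual degree of freedom. Depth limits the genes of few reads: C51F7.4 had 3 and 5 reads in control animals.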
